A study of Mus musculus with 20 samples.

Results

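30 genes of fatty acid oxidation and of the programme driven by the nuclear receptor PPAR-alpha were followed in liver and in subcutaneous adipose tissue (SAT) of mice that had lost their epididymal visceral fat. They were taken by symbol from a list that covers the regulators, each step of mitochondrial oxidation, peroxisomal and omega oxidation, the acyl-CoA thioesterases and a few further PPAR-alpha targets. All 30 were found among the 40757 entries of the deposited count table.

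The VATR groups had the epididymal fat pads taken out, and the sham groups had the abdomen opened and nothing removed. All animals were male C57BL/6J mice, an inbred strain, with no engineered allele named, and were 8 to 9 months old when operated. They ate chow until then and a high-fat diet from then on, so that no group stayed on chow. How long the diet lasted, the feeding state and the hour of tissue collection are not given. The 4 groups of VATR liver, sham liver, VATR SAT and sham SAT held 5 RNA sequencing libraries each, made from total RNA depleted of ribosomal RNA.

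PPAR-alpha is a fatty acid sensor that binds DNA together with its partner RXR and, in the fasted liver, raises the genes that import, activate and burn fatty acids. In mitochondria the carnitine shuttle brings long-chain fatty acids in, acyl-CoA dehydrogenases open each round of beta oxidation, and hydratase, dehydrogenase and thiolase steps close it. Peroxisomes shorten very long chains, microsomal CYP4A enzymes oxidise the far end of the chain, and acyl-CoA thioesterases release free fatty acids again. In mice the Cyp4a and Acot genes are among the steepest responders to PPAR-alpha agonists.

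Libraries held between 20307159 and 43618452 counts. The summed level of 10 hepatocyte markers ran from 75598 to 88357 CPM (counts scaled to library size by TMM, within each tissue unless said otherwise) in VATR liver and from 71577 to 95379 CPM in sham liver, against 55.3 to 355.2 CPM in VATR SAT and 71.6 to 656.6 CPM in sham SAT. In SAT most of the hepatocyte sum was 1 gene, Cyp2e1, at 110.8 ± 125.0 CPM in VATR SAT and 261.4 ± 241.7 CPM in sham SAT (mean ± SD). Only 4 of the 10 hepatocyte markers averaged at least 1 CPM in each SAT group. The 9 adipocyte markers summed to between 17700 and 22690 CPM in VATR SAT and between 11288 and 25351 CPM in sham SAT. Sham SAT libraries 3 and 4 stood apart. They carried 879.8 and 904.2 CPM of 12 lymphocyte markers, where VATR SAT held 13.6 to 20.9 CPM and the other sham SAT libraries 13.4 to 18.4 CPM, and they had the lowest adipocyte sums, 12940 and 11288 CPM. VATR SAT library 2 carried 30310 CPM of 14 skeletal muscle markers, against at most 2695 CPM in any other SAT library. These are bulk samples, in which fewer cells of a type and less RNA per cell cannot be told apart.

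Before surgery is compared, the tissues show where each gene is transcribed. Sham liver had more mRNA than sham SAT for 25 of the 30 genes and less for 1 (edgeR's quasi-likelihood test, adjusted p under 0.05), while over all 18449 genes tested 65.0% passed, 29.7% higher and 35.3% lower in liver. The median log2 difference, liver minus SAT, was 1.77 over the 30 genes and -0.11 over all genes. That all-gene median was -0.21 with upper quartile normalization and -0.04 with RLE normalization. The gene that was lower in liver was Pdk4, whose product shuts the pyruvate dehydrogenase complex and so spares glucose. Levels set across the tissues here are CPM under 1 scaling of all 20 libraries, which lies above the scaling within each tissue by a log2 median of 0.29 in liver and below it by one of -0.28 in SAT. On that scale Pdk4 averaged 27.1 ± 4.12 CPM in sham liver and 81.9 ± 53.1 CPM in sham SAT (SD, n = 5 each), and the fit gave a log2 difference of -1.63 ± 0.37 (SE).

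**Figure D1:**
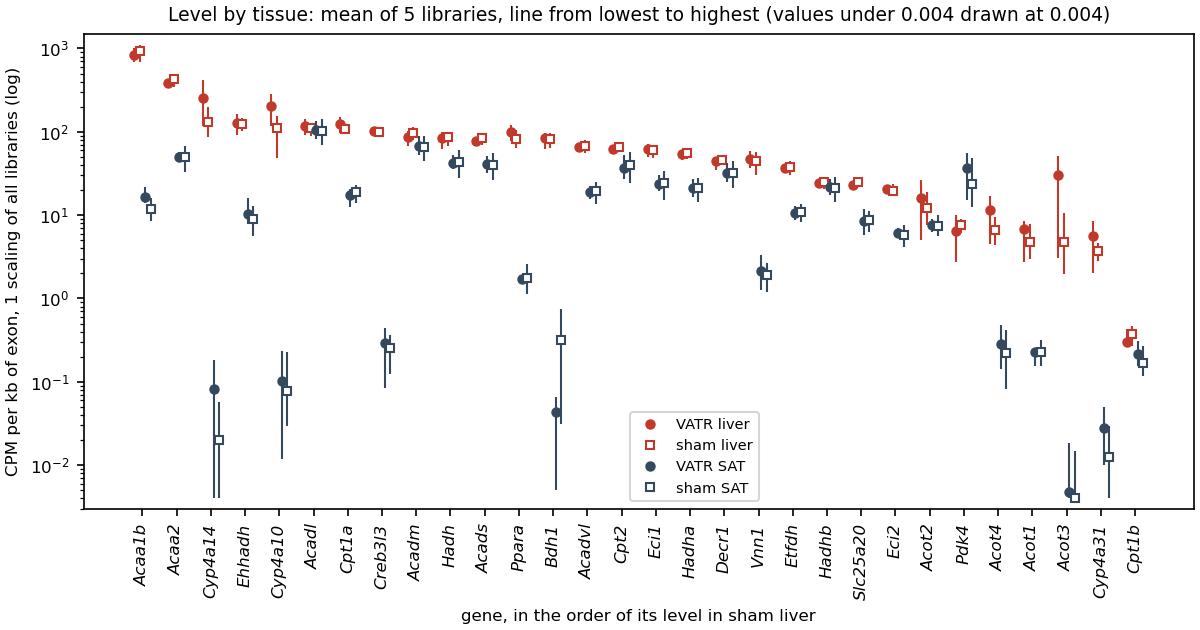
Level of each gene in CPM per kb of exon on a log axis, under 1 scaling of all 20 libraries, as the mean of 5 libraries with a line from the lowest to the highest library, for VATR and sham liver (red) and VATR and sham SAT (blue). Acaa1b leads in liver at 830.8 and 932.9 CPM per kb in VATR and sham, and Acadl leads in SAT at 104.8 and 103.2 CPM per kb in VATR and sham.

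Ppara itself was a liver gene here, at 317.9 ± 66.1 CPM in sham liver and 6.82 ± 2.41 CPM in sham SAT under the scaling of all 20 libraries, and the fitted fold was 45.7. Creb3l3, a membrane-bound transcription factor of hepatocytes that works with PPAR-alpha, was 391-fold higher in sham liver than in sham SAT. The largest fitted difference belonged to Cyp4a14, at a log2 difference of 12.63 ± 0.54, with Cyp4a10 at 10.54 ± 0.60 and Cyp4a31 at 8.07 ± 0.50. Bdh1, the mitochondrial enzyme that interconverts ketone bodies, had a log2 difference of 8.02 ± 0.81.

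The mitochondrial enzymes differed far less between the tissues. Acadm, Acadl, Hadhb and Decr1 did not pass the test, and their log2 differences were 0.52 ± 0.23, 0.06 ± 0.21, 0.23 ± 0.20 and 0.47 ± 0.21. Acadm and Acadl encode the medium-chain and long-chain acyl-CoA dehydrogenases, Hadhb the thiolase subunit of the trifunctional protein, and Decr1 the reductase for unsaturated chains. Acaa2, the mitochondrial thiolase, passed by a wider margin at 3.07 ± 0.23, as did Cpt1a, the liver-type gatekeeper of the carnitine shuttle, at 2.48 ± 0.16. The other mitochondrial genes were higher in liver by log2 differences between 0.67 ± 0.24 for Cpt2, the inner membrane end of the shuttle, and 1.79 ± 0.19 for Acadvl, the very long-chain dehydrogenase. Between them lay Slc25a20, the carrier of the shuttle, Acads, the short-chain dehydrogenase, Etfdh, which passes electrons to the respiratory chain, Hadha and Hadh, which handle the hydratase and dehydrogenase steps, and the isomerases Eci1 and Eci2.

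Per kb of exon, under the same scaling of all 20 libraries, the order of the genes was different in each tissue. In liver the peroxisomal thiolase gene Acaa1b came first, at 830.8 ± 119 CPM per kb after VATR and 932.9 ± 169 CPM per kb in sham mice, followed by Acaa2 at 389.4 and 424.9 CPM per kb in VATR and sham liver. Acaa1b shares 30.5% of the 50-base windows of its transcripts with its sister gene Acaa1a, so that reads may have been divided between them. In SAT the first 3 were Acadl, Acadm and Acaa2, at 104.8, 66.7 and 49.9 CPM per kb after VATR and at 103.2, 66.2 and 49.6 CPM per kb in sham mice. From Acadm to Acads, liver levels in sham mice lay between 96.7 and 84.0 CPM per kb with SDs of 9.27 to 13.8, so that neighbours in that stretch did not differ beyond their spread.

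A few of the liver genes were close to zero in SAT. Acot3 had 0, 2, 1, 0 and 0 counts in VATR SAT libraries 1 to 5 and 0, 0, 2, 0 and 0 counts in sham SAT libraries 1 to 5. Cyp4a14 stood at 0, 0.578, 0.285, 0.181 and 0.274 CPM in VATR SAT, against 0.0593, 0, 0.182, 0 and 0.0740 CPM in sham SAT. Cyp4a10 stood at 0.031, 0.116, 0.332, 0.242 and 0.609 CPM in VATR SAT, against 0.089, 0.075, 0.091, 0.151 and 0.592 CPM in sham SAT. The groups overlapped for all 3 genes at these few counts. Some hepatocyte markers were present in SAT, and the ratio of a gene to Alb, the albumin gene, was set against that in liver. Alb had 124 to 1030 counts in SAT libraries, while Ttr had 0 to 2 and Fgb 0 to 4. In every liver Ttr had at least 70592 counts and Fgb at least 50080. A ratio to Alb alone therefore does not measure hepatocyte RNA in SAT. Creb3l3 had a median of 84.1 counts per 1000 Alb counts in VATR SAT and 67.8 in sham SAT, against 6.10 in VATR liver and 5.31 in sham liver. For Cyp4a10 the medians were 22.4 in VATR SAT and 10.95 in sham SAT, against 9.63 in VATR liver and 4.87 in sham liver. Cyp4a14 lay closer to liver, at 22.1 in VATR SAT and 3.77 in sham SAT, against 12.2 in VATR liver and 5.63 in sham liver. The Acot3 median was 0 in both SAT groups, against 2.34 in VATR liver and 0.197 in sham liver. The part of hepatocyte RNA in the SAT values of the Cyp4a genes and Acot3 was not tested.

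Cpt1b, the muscle-type counterpart of Cpt1a, was near 1 CPM in every library, and its log2 difference between sham liver and sham SAT was 1.13 ± 0.30 (edgeR, adjusted p = 0.00566). Its level was 0.74, 0.75, 0.81, 1.19 and 0.71 CPM in VATR livers 1 to 5 and 0.77, 1.26, 0.74, 1.26 and 1.10 CPM in sham livers 1 to 5. In SAT it was 1.02, 1.27, 0.64, 0.79 and 0.67 CPM in VATR libraries and 0.50, 0.68, 0.64, 0.48 and 1.11 CPM in sham libraries. These values by library are scaled within each tissue. Under 1 scaling of all 20 libraries Cpt1b averaged 1.26 ± 0.31 CPM in sham liver and 0.56 ± 0.21 CPM in sham SAT. The highest SAT value by library belonged to the VATR library with the most muscle RNA, and the groups overlapped in both tissues. An overlapping annotated gene, Gm44502, covers 78.6% of the 50-base windows of Cpt1b, so its level is uncertain.

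The liver comparison asks how the liver differs after loss of the visceral depot under a high-fat diet. None of the 30 genes passed the adjusted threshold in liver (edgeR), and neither did any of the 17078 genes tested, which is 0% for both. At an unadjusted p under 0.05, 4 of the 30 (13.3%) were higher after VATR and 0 were lower, while over all genes 9.90% passed it, 4.68% higher and 5.22% lower. DESeq2 called 1 of the 30, Acot3, and 1.29% of all genes (220). The 4 were Acot3, Acot4, Cyp4a14 and Cyp4a10, and they belong to the thioesterase and omega oxidation groups. No gene of the 30 had all VATR livers beyond all sham livers, as 2.44% of all genes did.

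**Figure D2:**
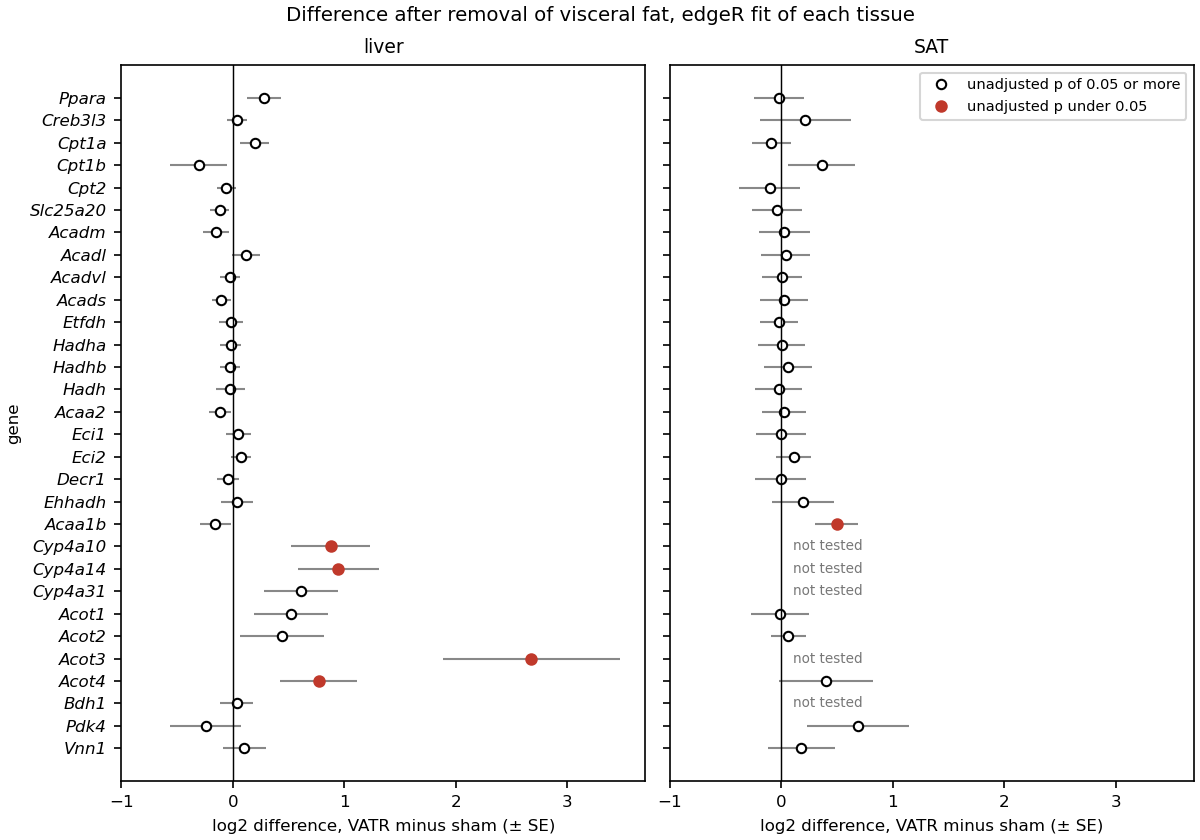
Log2 difference, VATR minus sham, with its standard error for each gene in liver (left) and SAT (right), from the edgeR fit of each tissue. Filled red points mark an unadjusted p under 0.05, 4 in liver and 1 in SAT, and no point passed the adjusted threshold.

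Acot3, a peroxisomal acyl-CoA thioesterase, had the largest difference. It stood at 148.7, 20.3, 8.78, 143.5 and 104.2 CPM in VATR livers 1 to 5, against 6.40, 30.3, 13.6, 10.5 and 5.63 CPM in sham livers 1 to 5. VATR livers 1, 4 and 5 were far above every sham liver, and VATR livers 2 and 3 lay inside the sham range. The log2 difference was 2.68 ± 0.80 (edgeR, adjusted p = 0.321). Leaving out single libraries moved it between 2.38 and 3.24. DESeq2 gave an adjusted p of 0.0471 for the same gene, and across all alternatives it ran from 0.0471 to 0.625.

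Acot4, another peroxisomal thioesterase of the same cluster, stood at 73.7, 40.0, 25.4, 94.0 and 79.7 CPM in VATR livers, against 30.04, 52.7, 34.6, 41.7 and 24.4 CPM in sham livers. The same 3 VATR livers were high and the other 2 lay among the sham livers. Its log2 difference was 0.77 ± 0.34 (edgeR, adjusted p = 0.495). Acot1, the cytosolic member of the family, averaged 22.1 ± 7.58 CPM after VATR and 15.3 ± 6.08 CPM in sham livers, and Acot2, the mitochondrial member, 29.3 ± 14.1 CPM and 21.6 ± 7.60 CPM in VATR and sham livers. Neither had an unadjusted p under 0.05.

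**Figure D3:**
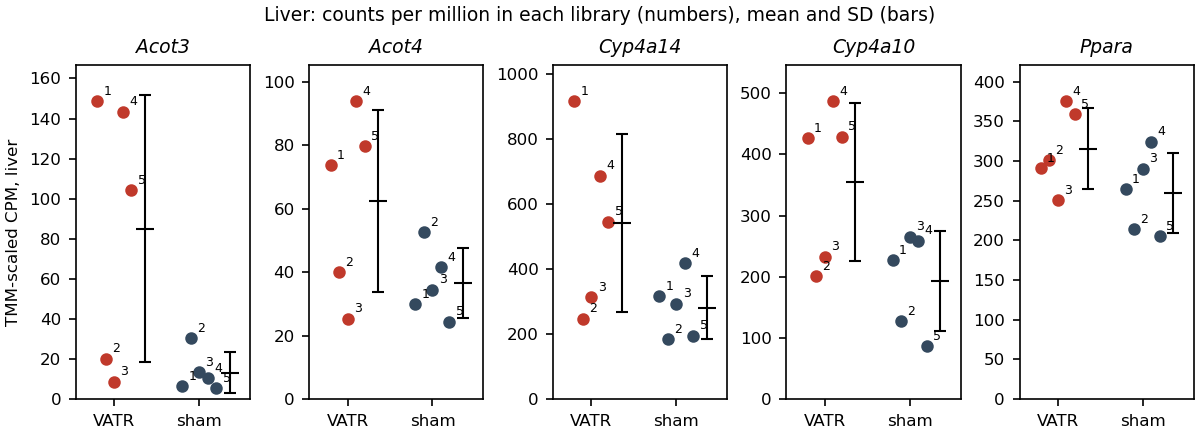
TMM-scaled CPM of 5 genes in each liver library, numbered 1 to 5, with the mean and SD as a black bar, VATR left (red) and sham right (blue). For Acot3, Acot4, Cyp4a14 and Cyp4a10 the libraries VATR 1, 4 and 5 lie above all sham livers, and VATR 2 and 3 lie within the sham range.

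The Acot genes sit in a row on chromosome 12 (GRCm38, plus strand), Acot2 at chr12:83987861-83993873, Acot1 at chr12:84009490-84018371, Acot4 at chr12:84038379-84048601 and Acot3 at chr12:84052144-84060402. Acot1 shares 13.6% of its 50-base windows with Acot2, and Acot2 shares 24.5% with Acot1, while Acot3 shares 5.98% with Acot5 and 21.3% with any other gene. When the counts of Acot1 to Acot6 were summed, the log2 difference in liver was 1.19 (edgeR, adjusted p = 0.407).

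The promoters of Acot2, Acot1, Acot4 and Acot3 are printed here, from RefSeq on GRCm38.p6, each with 250 bases before and 50 bases after an annotated start. They are chr12:83987611-83987910, chr12:84009252-84009551, chr12:84038129-84038428 and chr12:84051894-84052193, all on the plus strand. Capitals mark AGGTCA, the short element that many nuclear receptors bind, on either strand, so that TGACCT is a match on the minus strand.
Acot2: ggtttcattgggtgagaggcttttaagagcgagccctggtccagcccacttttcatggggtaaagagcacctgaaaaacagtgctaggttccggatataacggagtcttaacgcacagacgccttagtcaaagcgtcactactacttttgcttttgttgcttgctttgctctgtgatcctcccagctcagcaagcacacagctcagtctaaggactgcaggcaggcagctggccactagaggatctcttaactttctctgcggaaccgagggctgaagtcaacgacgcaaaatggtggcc
Acot1: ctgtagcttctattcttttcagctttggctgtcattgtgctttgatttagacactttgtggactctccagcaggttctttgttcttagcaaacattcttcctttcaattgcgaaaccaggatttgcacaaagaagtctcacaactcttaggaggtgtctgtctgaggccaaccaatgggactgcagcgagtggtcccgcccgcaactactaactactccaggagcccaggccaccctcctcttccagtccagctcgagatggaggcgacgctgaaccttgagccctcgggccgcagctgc
Acot4: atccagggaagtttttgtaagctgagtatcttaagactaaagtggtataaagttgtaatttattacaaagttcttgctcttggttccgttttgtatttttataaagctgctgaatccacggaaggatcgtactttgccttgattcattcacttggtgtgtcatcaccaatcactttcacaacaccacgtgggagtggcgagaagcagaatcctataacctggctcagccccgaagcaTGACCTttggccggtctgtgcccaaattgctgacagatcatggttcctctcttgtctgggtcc
Acot3: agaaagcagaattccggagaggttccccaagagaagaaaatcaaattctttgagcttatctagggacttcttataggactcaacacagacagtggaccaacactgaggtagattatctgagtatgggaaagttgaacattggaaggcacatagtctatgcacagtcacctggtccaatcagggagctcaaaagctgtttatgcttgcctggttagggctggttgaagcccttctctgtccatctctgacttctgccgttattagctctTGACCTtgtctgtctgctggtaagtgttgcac

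Acot4 held 1 match, which begins 13 bases before its start, and Acot3 held 1 match, which begins 18 bases after the start used here, while the windows of Acot1 and Acot2 held none. The part of these matches in the levels of the Acot genes was not tested. Of 26 promoters of 23 of the genes, 7 (26.9%) contained AGGTCA on either strand, against 16.3% of all 32851 promoters in the table. 2 of the 7 are overlapping Acot3 windows with the same match. By gene, 6 of 23 (26.1%) held it, against 4900 of 27025 genes (18.1%). 2 copies of AGGTCA in the same direction with 1 base between them, the consensus for PPAR with RXR, were in 0 of the 26 and in 0.0396% of all promoters. The looser form, which takes any base at the fourth position of each copy and so includes the first, was in 0 of the 26 and in 0.381% of all. Only exact matches within these short windows were counted, so sites with a mismatch or outside the windows were not searched for. Cpt1a, Acadm, Acadvl and Creb3l3 were the other genes with AGGTCA.

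The CYP4A enzymes hydroxylate the terminal carbon of fatty acids, the entry to omega oxidation. Cyp4a14 stood at 916.8, 247.3, 314.5, 687.4 and 545.8 CPM in VATR livers, against 316.4, 183.8, 293.6, 418.5 and 195.0 CPM in sham livers. Cyp4a10 stood at 426.0, 200.6, 233.0, 487.1 and 429.1 CPM in VATR livers, against 227.8, 127.1, 265.4, 259.1 and 86.3 CPM in sham livers. Again VATR livers 1, 4 and 5 were above every sham liver and VATR livers 2 and 3 were not.

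The log2 difference was 0.95 ± 0.36 for Cyp4a14 (edgeR, adjusted p = 0.438) and 0.88 ± 0.35 for Cyp4a10 (edgeR, adjusted p = 0.464). Cyp4a31 averaged 11.6 ± 5.68 CPM after VATR and 7.61 ± 1.29 CPM in sham livers, and both its highest library, VATR 5 at 17.5 CPM, and its lowest, VATR 3 at 4.24 CPM, were VATR livers. Unlike Cyp4a10 and Cyp4a14, it was above every sham liver in VATR livers 2, 4 and 5, and VATR liver 1 lay within the sham range. Cyp4a14 and Cyp4a10 lie near each other on chromosome 4, at chr4:115486200-115496142 on the minus strand and chr4:115518264-115533649 on the plus strand. Cyp4a10 shares 24.5% of its windows with Cyp4a32 and 15.0% with Cyp4a31, and the sum of these 3 had a log2 difference of 0.81 (edgeR, adjusted p = 0.430). Cyp4a14 shares 0.235% with any gene.

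The levels of these gene pairs were also set against each other from liver to liver. Over the 10 livers the log2 levels of Cyp4a10 and Cyp4a14 had a Pearson r of 0.907 (permutation p = 0.00016, adjusted over 6 pairs 0.00048) and a Spearman rho of 0.867 (permutation p = 0.00194). Without the 2 libraries farthest from the median r was 0.922, and within groups it was 0.856. Acot3 fell into separate clusters of livers, so its relation to Acot4 was read in the 7 livers other than VATR 1, 4 and 5, a choice made after seeing the data. There r was 0.869 (exact permutation p = 0.0131, adjusted over 4 pairs 0.0333) and rho 0.857 (exact permutation p = 0.0238, adjusted 0.0952), and r was 0.673 without the 2 livers farthest from the median. Over the same 7 livers Cyp4a10 and Cyp4a14 had r of 0.856 (exact permutation p = 0.0167, adjusted 0.0333) and rho of 0.714 (exact permutation p = 0.0881, adjusted 0.117), and r was 0.674 without the 2 livers farthest from the median. Acot1 and Acot2, though neighbours, differed in which livers were low. VATR liver 2 had 8.72 CPM of Acot1 with 26.3 CPM of Acot2, and VATR liver 3 had 24.2 CPM of Acot1 with 9.18 CPM of Acot2, its lowest value among the VATR livers.

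Some genes that follow growth hormone were also high in VATR livers, though not all in the same ones. Cux2, which encodes a transcription factor with a female bias in mouse liver, stood at 124.7, 2.04, 1.71, 59.7 and 23.1 CPM in VATR livers 1 to 5, and at 0.77 to 1.52 CPM in sham livers. Cyp2b13, a female-biased cytochrome P450 gene, stood at 272.0, 38.7, 0.81, 325.3 and 53.9 CPM in VATR livers, and at 0.86 to 8.69 CPM in sham livers. Cux2 was highest in VATR livers 1, 4 and 5, and Cyp2b13 was above all sham livers in VATR liver 2 as well. Socs2 and Cish, feedback inhibitors induced by growth hormone signalling, had the smallest p of the list. Socs2 stood at 18.6, 6.83, 15.4, 16.1 and 25.8 CPM in VATR livers, and at 3.78 to 7.04 CPM in sham livers. Cish stood at 12.5, 4.53, 18.6, 11.2 and 13.3 CPM in VATR livers, and at 2.48 to 4.87 CPM in sham livers. Both were above all sham livers in VATR livers 1, 3, 4 and 5 and within the sham range in VATR liver 2. Of 12 genes known to follow the growth hormone pattern, all 12 were detected and 10 could be tested. At an unadjusted p under 0.05, 4 were higher and 2 lower, while over all genes 4.68% were higher and 5.22% lower. The lower genes were Mup20 and Cyp2d9, with log2 differences of -2.18 ± 0.71 and -1.23 ± 0.45. The list summed to between 951.6 and 1944 CPM in VATR livers and between 2211 and 2919 CPM in sham livers. In sham livers most of that sum was Mup20, so it does not describe the list as a whole. Of 15 clock genes, 2 were higher and 2 lower at that threshold, with the core activator Arntl at 4.01 ± 1.86 CPM after VATR and 10.5 ± 5.16 CPM in sham livers. Their part in the values of the Acot and Cyp4a genes was not tested.

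**Figure D4:**
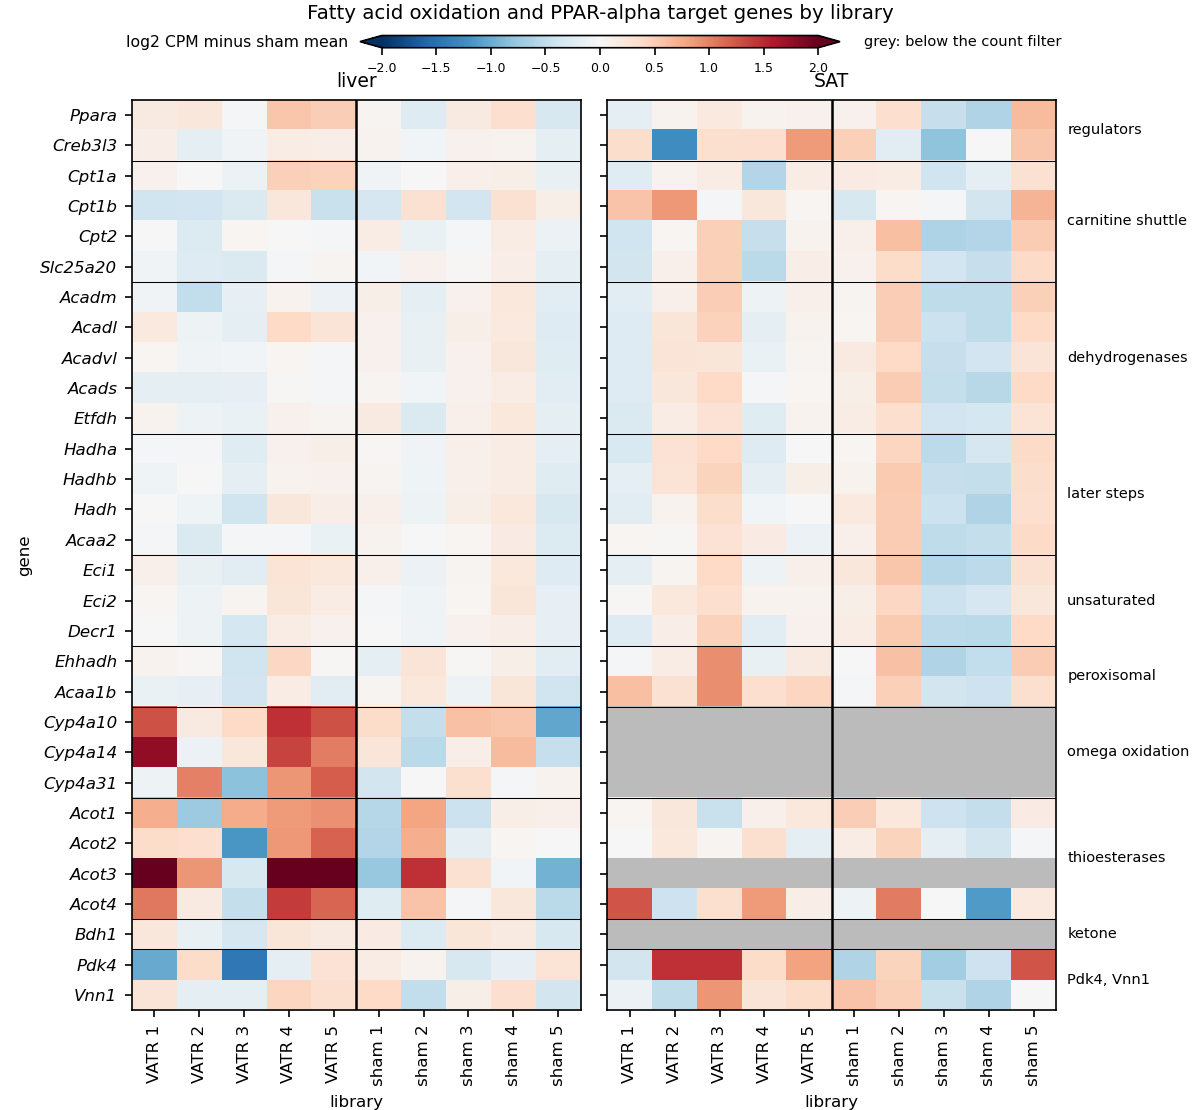
Each cell is the log2 CPM (pseudocount 0.1) of a gene in a library minus the sham mean of that tissue, liver left and SAT right, VATR libraries left of sham libraries in each, with grey for genes below the count filter. In liver the Acot3, Acot4, Cyp4a10 and Cyp4a14 rows are above the sham mean in VATR 1, 4 and 5, and Cyp4a31 is not in VATR 1. In SAT the columns of sham 3 and 4 are blue through most mitochondrial rows.

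Ppara stood at 291.2, 301.1, 251.0, 375.8 and 359.7 CPM in VATR livers, against 265.0, 214.8, 290.5, 324.6 and 205.1 CPM in sham livers. VATR livers 4 and 5 were above all sham livers and the rest overlapped. The log2 difference was 0.28 ± 0.15 (edgeR, adjusted p = 0.569). Creb3l3 averaged 254.6 ± 25.4 CPM after VATR and 248.3 ± 18.5 CPM in sham livers.

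Cpt1a, the rate-limiting step of mitochondrial import, stood at 713.9, 667.1, 616.0, 937.7 and 924.5 CPM in VATR livers, against 642.0, 666.5, 721.1, 724.5 and 607.6 CPM in sham livers. As with Ppara, only VATR livers 4 and 5 were above all sham livers, and the log2 difference was 0.20 ± 0.13 (edgeR, adjusted p = 0.657). The 15 mitochondrial genes of the shuttle, the dehydrogenases, the later steps and the unsaturated chains, Cpt1b left out, were among the steadiest measured here. Their CV had a median of 9.22% in VATR livers and 11.0% in sham livers, and 4 of their log2 differences were positive and 11 negative, from -0.15 for Acadm to 0.20 for Cpt1a. Hadha, which carries the hydratase of the trifunctional protein, averaged 393.1 ± 36.2 CPM after VATR and 398.3 ± 37.2 CPM in sham livers. The split changed with the libraries used, from 3 and 12 without VATR liver 4 or sham liver 5 to 9 and 6 without VATR liver 3 or sham liver 4.

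Acaa1b stood at 1347, 1316, 1140, 1642 and 1280 CPM in VATR livers, against 1537, 1704, 1377, 1754 and 1120 CPM in sham livers. The groups overlapped and the log2 difference was -0.16 ± 0.14 (edgeR, adjusted p = 0.754). Ehhadh, the peroxisomal bifunctional enzyme and a textbook PPAR-alpha target, averaged 310.2 ± 61.5 CPM after VATR and 302.0 ± 42.2 CPM in sham livers.

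Pdk4 stood at 10.9, 28.4, 8.07, 19.1 and 26.9 CPM in VATR livers, against 24.3, 23.1, 17.6, 19.5 and 26.5 CPM in sham livers. VATR livers 1 and 3 were below every sham liver and VATR livers 2 and 5 were above them all, and the log2 difference was -0.24 ± 0.32 (edgeR, adjusted p = 0.850). VATR liver 1 thus paired the highest Cyp4a14 level with a Pdk4 level below every sham liver. Across the 10 livers Cyp4a14 and Pdk4 had r of -0.383 and rho of -0.345 (permutation p = 0.278 and 0.335). Vnn1, a pantetheinase gene induced by PPAR-alpha, averaged 95.2 ± 19.0 CPM after VATR and 88.6 ± 23.7 CPM in sham livers, and Bdh1 268.2 ± 46.1 CPM and 262.0 ± 47.3 CPM in VATR and sham livers. Vnn1 and Cyp4a10 had r of 0.820 over the 10 livers (permutation p = 0.00376, adjusted 0.00752) and rho of 0.733 (permutation p = 0.0197, adjusted 0.0394), and r was 0.751 without the 2 farthest libraries. Over the 7 livers other than VATR 1, 4 and 5, r was 0.736 (exact permutation p = 0.0329, adjusted 0.0439). There rho was 0.714 (exact permutation p = 0.0881, adjusted 0.117), and r was 0.517 without the 2 livers farthest from the median.

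The count of 4 liver genes at an unadjusted p under 0.05 depended on single libraries and on the fit. It was 1 without VATR liver 4 or without sham liver 5, and 7 without VATR liver 3. The share of all genes at that threshold is not given for these settings, so the swing cannot be read as particular to these genes. Among the fits without a single library, the number of all genes called was also highest without VATR liver 3. It was 2 with the library number as a block, 2 with no filter on low counts and 3 with limma-voom. With close paralogs summed it was 1 of the 24 genes then tested. In that fit Acot3, Acot4 and Cyp4a10 were merged into sums and not counted, so its count cannot be set against the 4. The median log2 difference over the 30 genes was 0.03, beside 0.01 over all genes tested.

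Other genes of the pathway, from lists that exclude the 30, gave no call in liver. Among 14 further genes of mitochondrial oxidation, 0 had an unadjusted p under 0.05 in either direction. Among 18 further peroxisomal genes, Eci3 was higher and Acox2 and Hsd17b4 were lower at that threshold, beside 4.68% higher and 5.22% lower over all genes. Acox2, which shortens branched chains and bile acid precursors, averaged 196.9 ± 29.2 CPM after VATR and 242.5 ± 18.0 CPM in sham livers. None of 5 further ketone genes or of 10 partners of PPAR-alpha, RXR genes and coactivators among them, reached it.

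Of 23 other PPAR-alpha targets, 22 could be tested, and 3 were higher and 2 lower at that threshold, beside 4.68% higher and 5.22% lower over all genes. Slc27a1, a fatty acid transport protein gene, averaged 15.1 ± 1.94 CPM after VATR and 8.73 ± 1.43 CPM in sham livers, with a log2 difference of 0.79 ± 0.13 (edgeR, adjusted p = 0.144). Acot5, the next gene of the Acot row, averaged 1.41 ± 0.92 CPM after VATR and 0.37 ± 0.25 CPM in sham livers. Gpd1, which makes glycerol phosphate, averaged 315.5 ± 43.8 CPM after VATR and 443.6 ± 73.5 CPM in sham livers, with a log2 difference of -0.49 ± 0.13 (edgeR, adjusted p = 0.281).

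In SAT the comparison asks whether the remaining fat depot alters its fatty acid oxidation genes. Of the 30 genes, 25 passed the count filter, and Cyp4a10, Cyp4a14, Cyp4a31, Acot3 and Bdh1 did not. None of the 25 passed the adjusted threshold (edgeR), like 0% of all 18530 genes tested, and DESeq2 called 0 of the 25 and 0.853% of all genes (158). At an unadjusted p under 0.05, 1 of 25 (4%) was higher and 0 lower, beside 10.6% of all genes, 4.38% higher and 6.27% lower, a share near the background. None of the 25 had all VATR libraries beyond all sham libraries, as 1.44% of all genes did.

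That gene was Acaa1b. It stood at 41.1, 33.8, 51.9, 34.4 and 36.7 CPM in VATR SAT 1 to 5, against 26.8, 38.1, 21.1, 20.3 and 34.04 CPM in sham SAT 1 to 5. All 5 VATR libraries were above the sham mean, but sham libraries 2 and 5 reached into the VATR range. The log2 difference was 0.50 ± 0.19 (edgeR, adjusted p = 0.433), and it was 0.26 without sham libraries 3 and 4. In liver the same gene had a difference of -0.16 ± 0.14, and the difference between the responses, SAT minus liver, was 0.65 ± 0.26 (edgeR, adjusted p = 0.408).

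**Figure D5:**
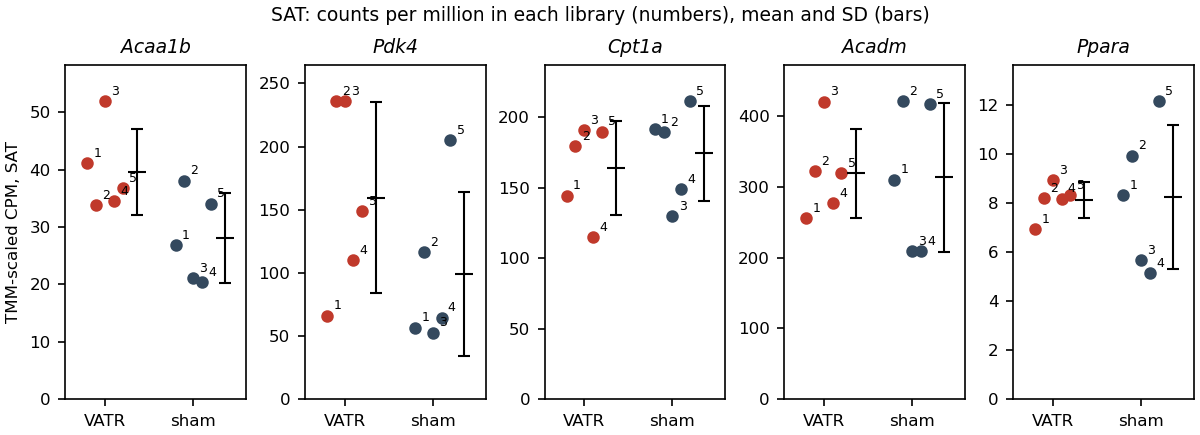
TMM-scaled CPM of 5 genes in each SAT library, numbered 1 to 5, with the mean and SD as a black bar, VATR left (red) and sham right (blue). The groups overlap for all 5 genes, and sham libraries 3 and 4 hold the lowest Acadm, Acaa1b and Ppara values.

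Pdk4 had the largest log2 difference in SAT, 0.69 ± 0.46 (edgeR, adjusted p = 0.600). It stood at 66.1, 235.9, 236.1, 110.3 and 149.2 CPM in VATR SAT, against 56.7, 116.4, 52.7, 64.6 and 205.4 CPM in sham SAT. VATR libraries 2 and 3 were above all sham libraries, yet sham library 5 was above VATR libraries 1, 4 and 5. Skeletal muscle also transcribes Pdk4, and its markers summed to 30310 CPM in VATR library 2 and to 318.0 CPM in VATR library 3. The part of muscle RNA in the Pdk4 value was not tested.

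Ppara in SAT was low, at 6.93, 8.21, 8.95, 8.19 and 8.32 CPM in VATR libraries, against 8.33, 9.95, 5.67, 5.15 and 12.2 CPM in sham libraries. The VATR libraries sat close together inside the sham range, at 8.12 ± 0.73 CPM in VATR SAT against 8.25 ± 2.94 CPM in sham SAT, and the log2 difference was -0.02 ± 0.22. Cpt1a stood at 144.3, 179.5, 190.8, 114.9 and 189.7 CPM in VATR libraries, against 191.5, 189.5, 130.1, 149.0 and 211.4 CPM in sham libraries. The groups overlapped, and the log2 difference was -0.09 ± 0.17. Acot4 had 3.91, 1.16, 1.99, 2.902 and 1.74 CPM in VATR libraries and 1.45, 3.33, 1.58, 0.66 and 1.81 CPM in sham libraries, with overlapping groups and a log2 difference of 0.40 ± 0.42.

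The mitochondrial genes varied more among SAT libraries than among livers. Their CV had a median of 19.4% in VATR SAT and 31.0% in sham SAT, and most of the 15 genes were lowest in sham library 3 or 4. Cpt1a and Slc25a20 were lowest in VATR library 4. Sham libraries 3 and 4 were lowest, with a geometric mean over the 15 genes of 0.676 and 0.684 times its median over the 10 SAT libraries, and sham library 2 was highest at 1.29 times. Acadm, for example, stood at 209.2 and 209.6 CPM in sham libraries 3 and 4, while the VATR libraries ran from 255.9 to 420.6 CPM and the other sham libraries from 310.5 to 421.5 CPM. The libraries lowest in these genes were those with lymphocyte RNA and the lowest adipocyte levels, and the part of those cells in the result was not tested.

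With all libraries, 8 of the 15 mitochondrial genes had a positive and 7 a negative log2 difference, with a median of 0.00. Without sham libraries 3 and 4, 0 were positive and 15 negative, with a median of -0.27. Of the 26 genes then tested, Ppara, Hadh, Acaa2 and Eci1 were lower at an unadjusted p under 0.05, beside 4.07% of all genes. Among these 4, Ppara had the lowest log2 difference, -0.32 (edgeR, adjusted p = 0.561). Cpt2 had the lowest of the 26, -0.44, without reaching that threshold. None of the 26 was called. Leaving out single libraries gave between 1 positive, without sham 3, sham 4 or VATR 3, and 14 positive, without sham 2, sham 5 or VATR 4. Over all 25 genes, 16 differences were positive and 9 negative with TMM, against 19 and 6 with upper quartile normalization and 21 and 4 with limma-voom.

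Bdh1 was near zero in most SAT libraries, at 0.28, 0.31, 0.02, 0.30 and 0.12 CPM in VATR libraries, against 0.15, 0.48, 3.55, 2.98 and 0.18 CPM in sham libraries. It was high in the sham libraries 3 and 4 that carried lymphocyte markers. Bdh1 did not pass the count filter in SAT and entered the fit of all 20 libraries only through its liver counts. Its response there differed between tissues by -2.92 ± 0.90 (edgeR, adjusted p = 0.340), the smallest p among the 30 genes. That estimate rests on sham SAT libraries 3 and 4 over SAT levels near zero, so it does not measure a difference in response. The part of the lymphocyte RNA was not tested.

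In that fit 0 of the 30 genes passed the adjusted threshold (edgeR), as 0% of 19954 genes did. At an unadjusted p under 0.05, Acaa1b was higher and Bdh1 lower in SAT relative to liver, 1 of 30 each way beside 10.1% of all genes, 3.61% higher and 6.51% lower. Bdh1, like Cyp4a10, Cyp4a14, Cyp4a31 and Acot3, was in that fit only through its liver counts. Pdk4 had log2 differences of 0.69 ± 0.46 in SAT and -0.24 ± 0.32 in liver, and the difference between the responses, 0.92 ± 0.58, did not pass (edgeR, adjusted p = 0.610).

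Vnn1, Ehhadh, Creb3l3, Acot1 and Acot2 complete the SAT picture, with none at an unadjusted p under 0.05. Ehhadh averaged 37.3 ± 12.5 CPM after VATR and 32.7 ± 12.2 CPM in sham SAT, Vnn1 6.32 ± 2.32 CPM and 5.58 ± 2.01 CPM in VATR and sham SAT, and Acot2 20.4 ± 2.78 CPM and 19.6 ± 4.44 CPM in VATR and sham SAT. Among Acot1 to Acot4, Acot2 had the most mRNA in SAT per kb of exon.

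Among the other pathway genes in SAT, 0 were called. Acad12 was the sole one of 14 mitochondrial genes at an unadjusted p under 0.05, at 15.8 ± 2.59 CPM after VATR and 11.9 ± 2.92 CPM in sham SAT. Over all genes 4.38% were higher and 6.27% lower at that threshold. None of 5 ketone genes, 10 PPAR partners or 17 tested PPAR-alpha targets reached that threshold. Of 9 tested brown and beige fat genes, 1 reached it, Pm20d1, at 9.78 ± 2.09 CPM after VATR and 5.85 ± 2.00 CPM in sham SAT. Cpt1b and Ucp1, the brown fat uncoupling protein, had r of 0.133 and rho of -0.055 over the 10 SAT libraries, and Cpt1b with the muscle markers r of 0.540 and rho of 0.503 (permutation p = 0.119 and 0.145).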

How the data were processed

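RNA of liver and SAT was sequenced by the authors in 20 libraries, 4 groups of 5. Per the submitters' processing notes, the tools were bcl2fastq, STAR 2.5.1a on GRCm38 and featureCounts 1.46 of Subread. The deposited values are the authors' raw counts per gene, not normalized. Annotation, strand setting and treatment of multi-mapping reads are not stated there, so close paralogs and overlapping genes may share reads. Nothing says whether libraries with the same number, or the 2 tissues, come from the same mouse, or that each library is a separate mouse, so p-values measure the spread between these libraries.

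The 30 genes, their roles and the other gene lists were chosen with earlier results of these data known. From 40757 entries, 317 exact repeats were dropped. Groups came from the sample titles. Each tissue was fitted with edgeR 4.0.16 in R 4.3.3 (filterByExpr by group, TMM, robust quasi-likelihood F-test), p was adjusted by Benjamini and Hochberg over all genes tested, and the threshold was 0.05. The difference in response came from 1 fit of all 20 libraries. CPM are counts scaled to the TMM library size within each tissue. Group levels of the 30 genes set across the tissues, and levels per kb of exon, used 1 scaling of all 20 libraries. Marker sums and values by library kept the scaling within each tissue. Errors are SDs over 5 libraries or SEs from the fit. Correlations used log2(CPM + 0.1) with 100000 resamples, two-sided. The fits were tested on simulated data. Alternatives were DESeq2 1.42.0, limma-voom (limma 3.58.1), RLE and upper quartile normalization, other count filters, no robust fitting, a joint fit, a replicate block, summed paralogs, leaving out each library, and leaving out sham SAT 3 and 4.

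Every library held at least 20307159 counts, so that counting error is small except near 0 CPM. Values in every library are given for Ppara, Cpt1a, Pdk4, Cyp4a10, Cyp4a14, Acot3 and Cpt1b, for each gene at an unadjusted p under 0.05, and for the 3 largest differences in each tissue. Genes outside the 30 are named if among the 3 smallest p of their list. A result of 1 list in SAT is withheld and not reported here. Cux2, Cyp2b13 and Bdh1 by library, Alb, Mup20, Cyp2d9, and the counts of Ttr and Fgb were added after their values were seen. Exon lengths and coordinates came from GENCODE M21 (GRCm38), matched by symbol for all 30. Promoters came from the RefSeq table, which matched 23. The single AGGTCA motif was not among the motifs planned. Protein identity between paralogs, planned, was not computed, and shared 50-base transcript windows were used instead.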

Additional observations from a re-analysis of the deposited data

Results flagged for a closer look

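Within each group of 5 libraries, 107 sets of values of these genes were searched for a single library far from the others, and chance flags about 1 in 20 such sets. 4 were found. Creb3l3 stood at 0.308 CPM in VATR SAT library 2, the library rich in skeletal muscle RNA, while the other VATR SAT libraries ran from 1.115 to 1.65 CPM. Cpt2 stood at 105.3 CPM in VATR liver 2, while the other VATR livers ran from 125.6 to 131.2 CPM. Acot1 stood at 8.72 CPM in VATR liver 2, against 24.1 to 27.3 CPM in the other VATR livers. Acot1 also stood at 0.736 CPM in VATR SAT library 3, against 1.08 to 1.23 CPM in the other VATR SAT libraries. VATR liver 2 was thus low in Acot1 while its Acot2 level of 26.3 CPM was close to that of VATR liver 1 at 26.7 CPM.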

How the results depend on the processing

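Over all genes, edgeR called 0 in liver, 0 in SAT and 0 for the difference in response, where 1691, 1973 and 2021 had an unadjusted p under 0.05. DESeq2 called 220 in liver (89 higher, 131 lower), 158 in SAT (53 higher, 105 lower) and 124 for the difference (31 higher, 93 lower), and in liver 1 of the 30 genes, Acot3, at 2.68. In liver limma-voom, no count filter and a filter of 1 CPM in 5 libraries each called 3 genes, and 1 fit of all 20 libraries called 27. Leaving out single libraries gave 0 to 53 called in liver, the highest without VATR liver 3, 0 to 1 in SAT and 0 to 3 for the difference, with 0 of the 30 genes called in each of these 3 comparisons. For liver against SAT it gave 11538 to 11922 genes and 24 to 28 of the 30.

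For the 9 genes given in every library, and over 4 comparisons, 722 values were recomputed under an alternative, and of these 712 kept direction and side of the threshold, 8 changed sign, 1 gained a call and 1 lost it, and none of the 8 was past the threshold. Over all tested genes of the 30, 28 of 593 values changed sign in liver, in 11 of 30 genes, and 94 of 521 in SAT, in 21 of 25 genes. The sign of Ppara in SAT was positive with limma-voom (0.0587) and with the replicate block (0.0442), and ran from -0.16 to 0.16 without single libraries. Cpt1a in SAT ran from -0.187 to 0.0159 without single libraries, the difference in response of Acot4 from -0.638 to 0.00273 and that of Cyp4a10 from -0.82 to 0.53. Cpt1b, called between sham tissues, was at 0.50 between VATR liver and VATR SAT (edgeR, adjusted p = 0.109). The cause of these changes was not tested.

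Equal library numbers gave a partial sign of pairing, and the labels give none. Between VATR and sham liver the deviations of numbers 1 to 5 had r of 0.105, 0.121, -0.04, 0.093 and 0.130, with 4 of 5 best with their own number, and between VATR and sham SAT r ran from -0.202 to 0.311, with 2 of 5. Between tissues 4 of 5 VATR pairs (r of 0.016 to 0.064) and 0 of 5 sham pairs were best with their own. Since not every r was over 0.1, libraries were not treated as paired. A fit with the number as a replicate block still called 0 genes in liver, SAT and the difference, and 26 of the 30 between sham tissues. Depth limits Acot3, the Cyp4a genes and Bdh1 in SAT, where most libraries held few or no counts.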
